A study of Mus musculus with 42 samples.

Results

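Gene expression was compared between 2 periods of embryonic development in single cells from the retina of CD-1 mice, which are outbred and for which neither a genetic change nor a treatment was given. The later side comprised the 7 cells whose labels place them at embryonic day (E) 13.5 (cells A5, A6, A8 and B3), E14.5 (cells B1 and D7) or E15.5 (cell B7), and the earlier side comprised all 11 cells from E12.5, so that 18 of the 42 cells in the series were used. Retinas were dissociated with papain, cells were picked at random with a capillary, and PCR-amplified cDNA of 1 cell was hybridized to 1 Affymetrix 430 2.0 array. The cells were named retinal progenitor cells (RPCs) only afterwards, from the genes they expressed, and the study set E13.5 cell A6 and E14.5 cell B1 apart as transitional. For E13.5 cells A5 and A6, the labels gave only the stage and the name single retinal progenitor cell. A gene was measured in a cell by the highest MAS5 signal among its probe sets, on a linear scale, and was called present at a signal of 1000 or more. A transcript with a lower signal may still have been there. No label ties a cell to an animal or a litter, so each side counted as 1 sample, no test was made between them, and every interval given below is a 95% interval (exact Clopper-Pearson for a share, Newcombe for a difference in percentage points, later minus E12.5) that covers counting error only.

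RPCs are the dividing cells of the embryonic retina, and each can give rise to neurons as well as to further progenitors. In the mouse, retinal ganglion cells (RGCs) are among the earliest neurons to be born, followed by horizontal cells, cone photoreceptors and amacrine cells, and the days from E12.5 to E15.5 span much of this early wave. A cell about to leave the cell cycle transiently expresses neurogenic basic helix-loop-helix (bHLH) factors and inhibitors of cyclin-dependent kinases. The lens lies directly against the retina at these stages and the retinal pigment epithelium (RPE) covers its other face, and each has transcripts of its own, the crystallins and the genes of pigment formation.

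Of 18194 genes measured, 10622 were present in at least 1 of the 18 cells and 102 were present in all of them. The number of genes present in a cell ranged from 1691 to 4828 at E12.5, with a median of 2800, and from 2157 to 4537 in the later cells, with a median of 3357, so that the 2 ranges overlapped almost entirely. One array stood apart. On the array of E13.5 cell A6 the median probe set signal was 216, against 10.1 to 105 on the other 17 arrays, and the mean signal was 4810, against 757 to 1268. In this cell 414 genes reached a signal of 100000 or more, while no other cell had more than 17 such genes, and 76.4% of its present genes lay between 1000 and 2500, against 11.2% to 55.1% in the other cells. Signals of A6 are therefore given below for many of its presence calls close to 1000, but not for all of them. Whether this array had a part in any result was not tested, and results are also given without A6 where it changes them.

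Transcripts of the lens were found in a few of the later cells. The promoters of 6 crystallins, the structural proteins that fill the lens fiber cell, are shown first, because the signals of these genes set E13.5 cell A6 and E14.5 cell D7 apart from all other cells. Each line gives the 110 bases directly before the annotated start of transcription, from 5′ to 3′ on the strand of the gene, in the RefSeq annotation of GRCm38.p6. Capitals mark 3 letter strings that were searched for on both strands and that do not overlap one another. They are TGCTGA, the core of the site bound by Maf factors, ACAAAG, a core site of Sox factors, and TATATA, a form of the TATA box.
Cryaa, chr17:31677821-31677930, + strand: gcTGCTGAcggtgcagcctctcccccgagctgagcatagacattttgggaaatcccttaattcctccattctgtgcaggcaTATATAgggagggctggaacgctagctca
Crybb1, chr5:112255710-112255819, + strand: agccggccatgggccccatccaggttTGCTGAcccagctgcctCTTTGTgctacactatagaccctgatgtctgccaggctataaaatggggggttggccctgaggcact
Cryga, chr1:65103364-65103473, - strand: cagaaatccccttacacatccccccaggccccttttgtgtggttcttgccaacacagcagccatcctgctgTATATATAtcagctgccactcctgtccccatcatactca
Crygb, chr1:65082291-65082400, - strand: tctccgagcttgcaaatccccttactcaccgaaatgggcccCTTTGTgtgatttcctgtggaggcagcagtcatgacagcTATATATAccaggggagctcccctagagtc
Crygd, chr1:65063441-65063550, - strand: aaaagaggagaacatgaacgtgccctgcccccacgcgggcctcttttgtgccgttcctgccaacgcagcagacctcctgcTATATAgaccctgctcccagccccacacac
Crygf, chr1:65926412-65926521, + strand: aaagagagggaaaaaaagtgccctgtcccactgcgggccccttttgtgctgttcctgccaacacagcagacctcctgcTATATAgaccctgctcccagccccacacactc

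Over the 250 bases before the start, TGCTGA or its reverse complement was found in 9 of the 12 crystallins that were present in at least 1 of the 18 cells, against 16.1% of 32851 promoter entries for all genes. ACAAAG or its reverse complement was found in 5 of the 12, against 16.5% of all entries, and TATATA in 6 of the 12, against 5.25%. These matches describe the sequences and do not show that a factor was bound.

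In E14.5 cell D7, 16 of the 31 measured lens genes were present, and in E13.5 cell A6 12 were. E13.5 cells A8 and A5 followed with 4 and 3 genes and E15.5 cell B7 with 1, while E13.5 cell B3 and E14.5 cell B1 had none. The 11 E12.5 cells had between 0 and 2. Cryaa, the αA-crystallin, had a signal of 78457 in A6 and 37077 in D7 and lay at 252 or below in the other 16 cells. Crybb1, a β-crystallin, was at 182917 in A6, 34616 in D7 and 10166 in A5, and the other 4 later cells and all E12.5 cells lay at 184 or below. Among the γ-crystallins, which belong to the lens fiber cell, Cryga reached 121902 in A6, 36730 in D7 and 1029 in A8, Crygb reached 282642 in A6 and 24080 in D7, and Crygd reached 277341 in A6 and 35447 in D7. The γ-crystallins are close in sequence, so that signals of single members can include another member, and the probe set of Crygf, at 21154 in D7 and 2226 in A6, is one of those designed to match several transcripts. Cryba1 was at 42790 in D7 and 6270 in B7, but at 626 in A6, and Cryba4 and Crybb3 were present in D7 alone, at 21028 and 35832.

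Genes of the lens fiber membrane followed the same cells. Mip, the lens water channel, was at 6056 in D7 and 4218 in A6, and Lim2, a membrane protein of the fiber cell, was at 9350 in D7 and 104 in A6. Both lay at 202 or below in every other cell of the 18. Cryba2, Crygs and Crygn were at 4760, 4331 and 2099 in D7, and at the limit in A6 for Cryba2 and Crygs (1034 and 1017). Hsf4, a heat shock factor of the lens, and the lens protein Grifin were called in A6 only, at 1130 and 1407. The transcription factors of the lens were not limited to these cells. Sox1 was at 6001 in A5 and 4846 in D7, Prox1 at 1053 in A8, and Maf at 11127 in E12.5 cell G2 and at 2481, 1392 and 1790 in A5, A6 and A8. Caprin2, an RNA-binding protein of lens fibers, was present in 4 E12.5 cells and in A8 and D7, so that Caprin2 and Maf made up all of the E12.5 values of the list. In all, 9 lens genes were present in both A6 and D7 and 19 in at least one of them. At a level of 5000 in place of 1000, 11 lens genes were present in D7 and 5 in A6. Over the whole list, 5 of 341 combinations of gene and cell were present at E12.5, or 1.47% (0.478% to 3.39%), and 36 of 217 in the later cells, or 16.6% (11.9% to 22.2%). Without A6 and D7, the share in the other 5 later cells was 5.16%. The highest crystallin signal in any E12.5 cell was 585, and crystallins were called present 5 times over the 24 cells from E16.5 and P0. Both cells with many crystallins also had progenitor transcripts, which is described below.

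**Figure D1:**
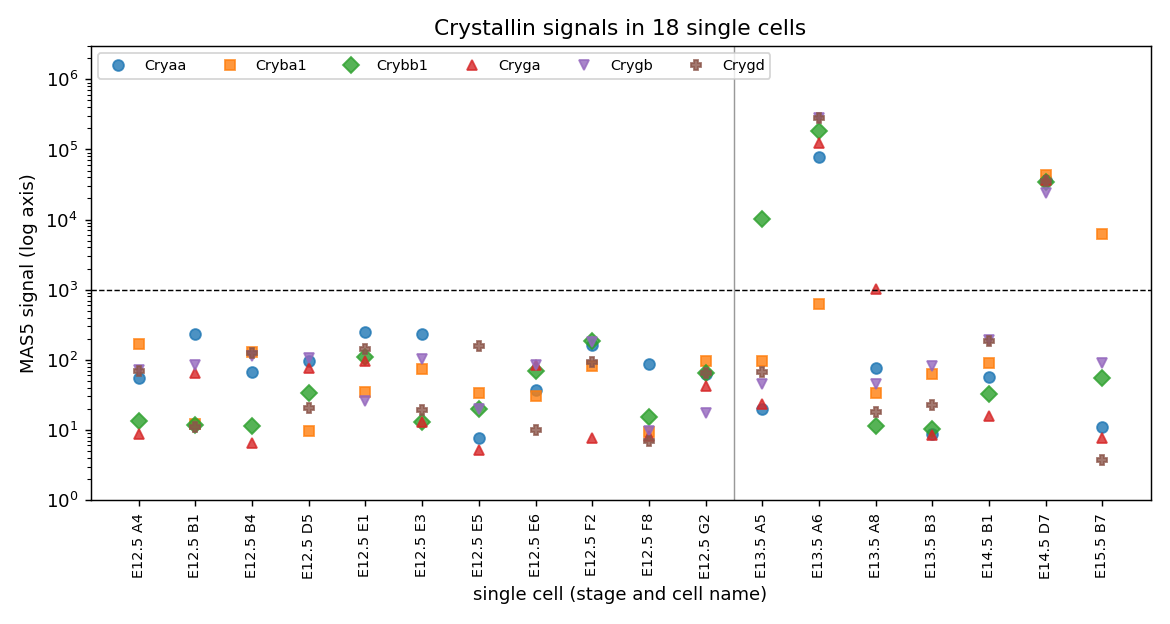
Signals of 6 crystallin genes (symbols) in each of the 18 cells, with the MAS5 signal on a log axis; the dashed line marks 1000 and the grey line divides the E12.5 cells from the later ones. E13.5 A6 and E14.5 D7 hold nearly all of the points above the dashed line, and the E12.5 cells hold none.

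Pigment epithelium transcripts were concentrated in a different E13.5 cell. In cell A5, 5 of the 15 measured RPE genes were present. They were Pmel, a protein of the fibrils on which melanin is deposited, at 24440, the transcription factors Tfec at 13107 and Mitf, the master regulator of pigment cells, at 5104, the ion channel Trpm1 at 12675, and the homeodomain factor Otx1 at 7377. Pmel, Tfec and Trpm1 lay below 1000 in the other 17 cells. Mitf and Otx1 were also present in E13.5 cell A8, at 2598 and 3751, and in no other cell of the 18. The 3 RPE genes called present in A6, Tyrp1, Slc45a2 and Ttr, had signals of 1162, 1445 and 2336. At E12.5 the only RPE gene present was Rrh, in 1 of the 11 cells, and Rrh was also the 1 RPE gene present in E14.5 cell D7. The list thus had 1 present value of 165 at E12.5, against 11 of 105 in the later cells. Without A5 and A6 the later share was 4.0%, in place of 10.5%.

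Blood genes were present in 12 of 110 combinations at E12.5 (10.9%, 5.77% to 18.3%) and in 13 of 70 later (18.6%, 10.3% to 29.7%). A single E12.5 cell, G2, gave most of the E12.5 values, and without it, and without A5, A6 and D7, the shares were 5.0% and 17.5%. In E12.5 cell G2, 7 of the 10 measured blood genes were present, with Hbb-y, an embryonic β-like globin, at 97695, Hba-x, the embryonic α-like globin, at 70814, and Alas2, the erythroid enzyme of heme synthesis, at 13594. Alas2 lay at 93 or below in the other 17 cells. Hbb-y was found in more cells, at 10777 and 24752 in 2 further E12.5 cells (E5 and F8) and at 13841, 19930, 25619 and 47984 in the later cells A6, B1, D7 and B7, with 184 or less elsewhere. Tfrc, the transferrin receptor, which dividing cells of many kinds also use, was present in 2 E12.5 cells, B4 at 11521 and G2 at 10248, and in the later cells A5, A8, B3 and D7 at 4152, 12614, 23328 and 5979. The globin Hbb-b2 was present in 3 E12.5 cells and 2 later cells. Markers of other neighbors were rare. Microglia genes were called present in A6 alone among the later cells, where Ptprc was at 15985 and Cx3cr1 at 1398, and Cd68 was present in 1 E12.5 cell, so that the list had shares of 0.758% at E12.5 and 2.38% later. Of the endothelial genes, Eng and Cldn5 were called in A6 at 2330 and 1051, and the list had shares of 6.36% and 2.86%. Mesenchyme genes had 1.65% and 2.60%, with Col1a2 in 2 cells on each side and with Col1a1 and Col3a1 in no cell. Keratin and surface ectoderm genes were present in no E12.5 cell and were called 6 times in the later cells (6.12%), of which 4 were in A6 with signals between 1042 and 2076, Krt14 and Krt19 among them. Krt10 was present in 1 later cell.

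The progenitor character of the cells was read from 19 measured genes, which are not independent of the cells, since the study classed the cells by their expression of Ccnd1, Fgf15, Sfrp2, Crym and the genes found with them. Of these genes, 133 of 209 combinations were present at E12.5 (63.6%, 56.7% to 70.2%) and 86 of 133 in the later cells (64.7%, 55.9% to 72.7%). Pax6, the eye field transcription factor, and Sfrp2, a secreted Wnt inhibitor, were present in all 18 cells. Ccnd1, the D-type cyclin that drives retinal progenitors through G1, was present in all 7 later cells at signals from 9769 to 195597, and in all E12.5 cells except E5, where its signal was 191. A6, with the pattern of crystallins described above, had 7 progenitor genes present, among them Ccnd1 at 195597, Six6 at 227612, Dkk3 at 279567 and Sfrp2 at 68920, while Sox2 was at 59 and Vim at 83. D7 had 14 progenitor genes present, including Sox2 at 25990, Fgf15 at 41292 and Vim at 27646. E12.5 cell E5 had the fewest, with 5. No member of this list differed by 50 percentage points of cells. Sfrp1, a second Wnt inhibitor, came closest, with 3 of 11 cells at E12.5 and 5 of 7 later (44.2 points, -1.90 to 71.0). Among the other members, Plagl1 was present in all 11 E12.5 cells and in 5 later cells, and Sox2 in 10 of 11 and 5 of 7. The receptor Notch1 was present in 10 E12.5 and 5 later cells, and the eye field factors Lhx2, Six3 and Rax in 9 and 5, 6 and 4, and 3 and 4. Hes1 was present in 2 cells on each side and Hes5, another effector of Notch, in 2 and 3. Nes, Fzd5 and Fabp7 were present in few cells, with 3 and 1, 2 and 1, and 1 and 2.

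**Figure D2:**
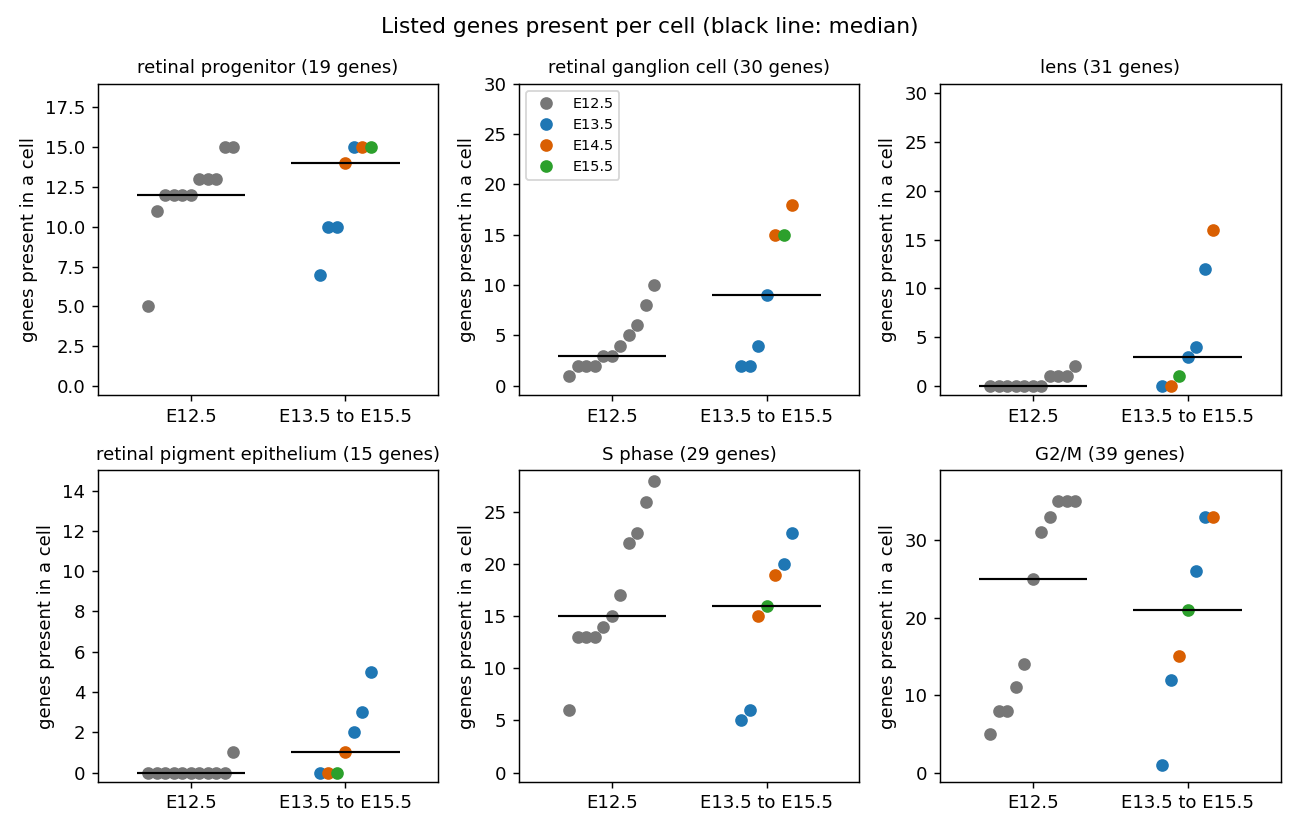
Number of genes of 6 lists that were present in each cell (1 dot per cell, colored by stage; the black line is the median of a side), with the number of genes measured as the top of each vertical axis. The 2 sides overlap for progenitor, S phase and G2/M genes, both E14.5 cells and the E15.5 cell lie above every E12.5 cell for RGC genes, and single later cells stand out for lens and RPE genes.

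Across all genes, a difference of at least 50 percentage points of cells was reached by 101 genes in favor of the later cells, or 0.555% of the 18194 genes, and by 39 genes in favor of E12.5, or 0.214%. The excess on the later side depended on the scaling, with 59 and 58 genes after quantile normalization and 48 and 71 when the 3000 highest genes of each cell were called present. Over all genes the later cells had more present values, 18.1% against 15.3%, and the median difference over the genes present in any of the 18 cells was 5.19 points. No gene was present in all cells of one side and in none of the other. Of the 101 genes, 15 were present in all 7 later cells and 18 in no E12.5 cell. Of the 39 genes, 17 were present in no later cell and 3 in all 11 E12.5 cells. These genes were not spread evenly among the cells of a side. E12.5 cell A4, which had the most genes present of all 18 cells, had 54 of the 101, while the other E12.5 cells had 4 to 28. E13.5 cell A6 had 64 of the 101 and none of the 39. Both counts moved by more than 1.5 times when certain single cells were left out, and the first was 202 genes without E13.5 cell B3 and the second to 73 without E12.5 cell F2.

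The 12 genes with the largest difference in favor of the later cells did not belong to a single pathway. They were present in 19.7% of combinations of gene and cell at E12.5, and in 91.7%, 87.5% and 91.7% at E13.5, E14.5 and E15.5. In the E16.5 and P0 cells, which had no part in their choice, the share was 35.6% and 42.9%. Genes picked for extreme values tend to be less extreme in other cells, so this is not read as a change after E15.5. Zeb1, a zinc finger repressor of epithelial genes, was present in all 7 later cells and in 2 of the 11 E12.5 cells. Its signals in the later cells were 17116 in A5, 6563 in A6, 3508 in A8, 20530 in B3, 8523 in B1, 1007 in D7 and 7711 in B7, and at E12.5 they were 3943 in A4, 2134 in E5 and between 9 and 405 in the other cells. The difference was 81.8 points (35.7 to 94.9). Slc39a1, a zinc importer, was present in 6 later cells, at signals from 1038 to 88359, and in 1 E12.5 cell, at 3562 (76.6 points, 29.8 to 90.5). Atp6v0a1, a membrane subunit of the proton pump that acidifies vesicles, was present in 5 of 7 later cells, at 11282 in A5, 1394 in A8, 11771 in B3, 3903 in B1 and 2407 in B7, and in no E12.5 cell, where it lay at 743 or below (71.4 points, 27.5 to 91.8). Aar2, a factor in the assembly of the spliceosome, likewise had 5 later cells and no E12.5 cell, but 2 of the 5 signals, 1035 in A8 and 1163 in A6, were near the limit. The value of Aar2 came from a probe set of the kinds that can match several transcripts, and without such probe sets Aar2 was present in none of the 18 cells.

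As the 12 genes were chosen for their differences, their intervals describe the counting error and are no test. Pttg1ip, which binds the separase inhibitor securin, Ube2e2, a ubiquitin-conjugating enzyme, and Midn, a nuclear protein, were each present in all 7 later cells and in 3 E12.5 cells (72.7 points, 26.8 to 90.3). Pitpnc1, a phosphatidylinositol transfer protein, Ankrd40 and Lypla1, which removes palmitate from proteins, were present in 6 later and 2 E12.5 cells (67.5 points, 20.2 to 85.1). Rnf20, the ligase that ubiquitinates histone H2B, and Ndufv1, a subunit of respiratory complex I, were present in 7 later and 4 E12.5 cells (63.6 points, 18.3 to 84.8). D7 was close to the limit for Zeb1, Slc39a1 and Ube2e2, at 1007, 1038 and 1039. Without A6 and D7 the 12 differences ranged from 61.8 to 100 points. At the counts for which these genes were chosen, leaving out any 2 later cells could not bring one under 50 points. The range is therefore no check on A6 and D7.

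On the other side, Sart1, a component of the spliceosomal tri-snRNP, was present in 8 of 11 E12.5 cells at signals from 1698 to 9920 and in no later cell, where it was at 622 or below (72.7% against 0%, a difference of -72.7 points, -90.3 to -26.8). Melk, a kinase of dividing cells, was present in 9 E12.5 cells, at signals from 1558 to 35472, and in a single later cell, B7, at 1151 (-67.5 points, -85.1 to -20.2). The same counts were found for Arhgap5, a GTPase-activating protein, for Hmg20b, a subunit of the LSD1 corepressor complex, and for the uncharacterized LOC102631979. Kdr, the receptor for vascular endothelial growth factor, was present in 7 E12.5 cells at 1445 to 19742 and in no later cell, with 460 as the highest signal there (-63.6 points, -84.8 to -18.3). It was the only endothelial gene present at E12.5, so that the other 9 measured genes of that list lay below 1000 in every E12.5 cell. In the cells of E16.5 and P0, Kdr was present in 6 of 11 and 12 of 13.

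Pfkl, the liver-type phosphofructokinase of glycolysis, Mcmbp, a binding partner of the replicative helicase, Faap20, which belongs to the Fanconi anemia core complex, and Limd1, a LIM domain adaptor, had the same counts as Kdr. Pfkl was at 1095 to 26840 in the 7 E12.5 cells and at 470 or below in the later cells, but it too was measured by a probe set of the kinds that can match several transcripts. Mrpl23, of the mitochondrial ribosome, was present in 10 E12.5 and 2 later cells, and Msn, the actin linker moesin, in 8 and 1. Without A6 and D7 the 12 differences ranged from -81.8 to -52.7 points. Here too, at the counts for which the genes were chosen, leaving out any 2 later cells could not bring a difference under 50 points in size. This range is therefore no check on A6 and D7 either. Together the 12 genes were present in 73.5% of combinations at E12.5, and in 6.25%, 12.5% and 8.33% at E13.5, E14.5 and E15.5. In the E16.5 and P0 cells, which had no part in the choice, the share was 40.9% and 53.2%. For the reason given above, this is not read as a change after E15.5. Further genes shared the value at the edge of each list of 12, since 17 genes on each side reached 63.6 or -58.4 points.

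**Figure D3:**
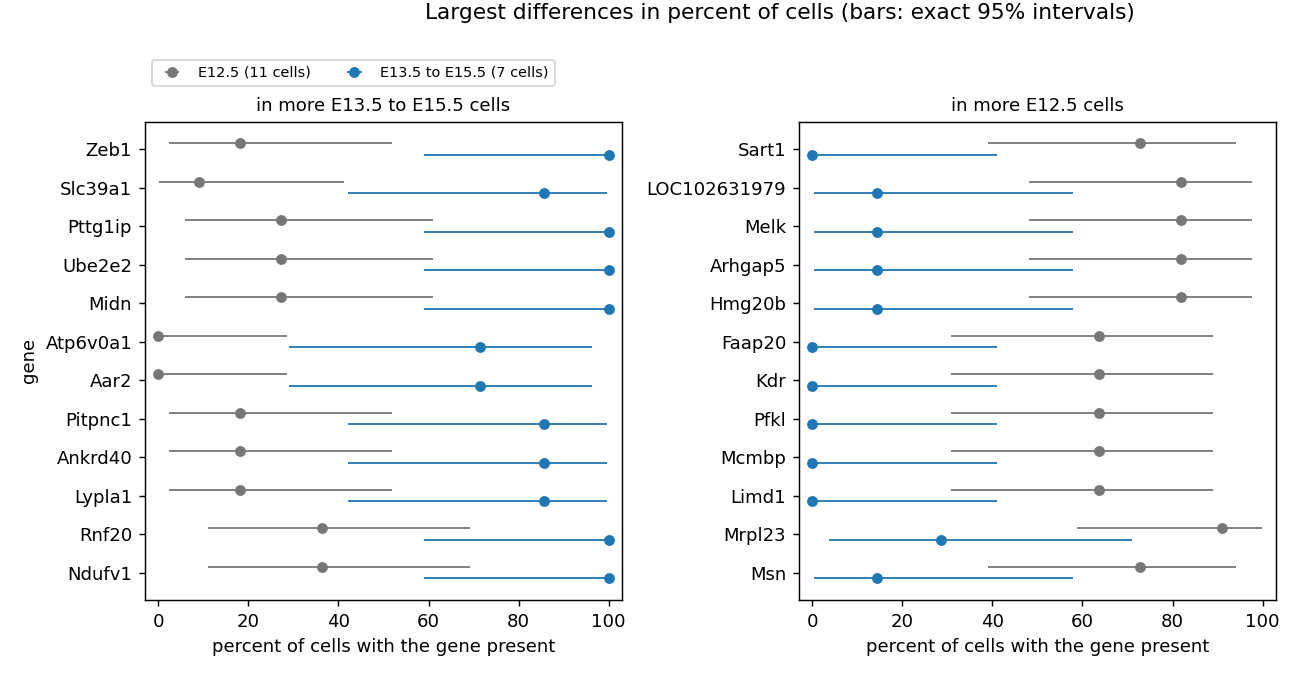
Percent of cells in which a gene was present, for the 12 genes with the largest difference in each direction; grey points are the 11 E12.5 cells, blue points the 7 later cells, and bars the exact (Clopper-Pearson) 95% intervals. Intervals of the 2 sides meet or overlap for most genes, and the later points lie at 0% for Sart1, Faap20, Kdr, Pfkl, Mcmbp and Limd1.

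RGC genes were found more often in the later cells, and mainly in 3 of them. Of 30 measured genes, 46 of 330 combinations were present at E12.5 (13.9%, 10.4% to 18.2%) and 65 of 210 in the later cells (31.0%, 24.8% to 37.7%). E14.5 cell B1 had 18 genes present, E14.5 cell D7 and E15.5 cell B7 15 each, and E13.5 cells A6, A8, A5 and B3 9, 4, 2 and 2. The E12.5 cells had 1 to 10, so that the E13.5 cells lay within their range and the later 3 above it. This order depended on the presence level. At a level of 5000, B1 had 17 genes and B7 had 8, but D7 had 4, within the 0 to 7 of the E12.5 cells. In these 3 cells, Stmn2, a regulator of microtubules in growing axons, Tubb3, the neuronal β-tubulin, Rbpms, an RNA-binding protein of RGCs, the synuclein Sncg, the intermediate filament Ina and the G protein subunit Gng3 were present together. Stmn2 was at 33815 in B1, 16528 in D7, 7532 in B7 and 1006 in A6, and was also present in 3 E12.5 cells at 10165, 11831 and 12564. Tubb3 was at 63010, 14897, 14975 and 116800 in the same 4 cells and in 5 E12.5 cells at 6169 to 36944.

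The members Pou4f1, Gap43, Ebf1, Elavl4, Dcx, Cntn2, Nrn1 and Syt4 were present in later cells only, each in 1 to 3 of the 7 cells. The share of all genes with this pattern was not counted, so it is not read as particular to the list. Gap43, a protein of the axonal growth cone, was at 2576 in A8, 2719 in D7 and 5995 in B7 (42.9 points, 5.43 to 75.0). Dcx, a microtubule-binding protein of young neurons, was at 158739 in A6, 3871 in B1 and 13278 in B7, against 846 or less at E12.5. Pou4f1, a POU domain factor of RGCs, was at 1253 in B7 only. The related Pou4f2 (Brn3b), which the paper reports at a significant level in E14 cell B1, was not among the members called present here. Of the 32 genes in the list 30 were measured, so a missing call need not mean a signal below 1000 and does not contradict the paper. Crmp1, a protein of axon guidance, was present in 4 cells on each side. No member differed by 50 points, and 25 of the 30 had a higher percent of later cells. The median difference of all genes present in any cell was also above 0, at 5.19 points. The share of all genes with a higher percent of later cells was not counted, so the 25 are not read as particular to the list. The share without A6 and D7 was 27.3%. At E16.5 and P0 the share of this list was 27.3% and 20.3%.

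Genes of neurogenesis were mixed from cell to cell on both sides. Of 25 measured bHLH factors, Notch ligands and genes found with them, 60 of 275 combinations were present at E12.5 (21.8%, 17.1% to 27.2%) and 56 of 175 later (32.0%, 25.2% to 39.5%), with 0 to 13 genes in an E12.5 cell and 4 to 12 in a later one. Atoh7, the bHLH factor required for RGC formation, was present in 4 of 11 and 4 of 7 cells, and the 4 later signals were 25362 in B3, 3002 in B7, 1709 in A6 and 1219 in A8. Neurog2, another proneural factor, was present in 2 E12.5 cells at 5769 and 6752 and in 4 later cells at 12314 in B3, 5327 in B1, 2261 in D7 and 1022 in A8 (39.0 points, -4.64 to 69.0). Btg1, an antiproliferative factor, was present in 7 E12.5 and 5 later cells. Neurod4 was at 32968 in B7 and 5256 in D7, and in 1 E12.5 cell at 5152. B3 stood out within E13.5, with Insm1, a zinc finger factor of newly formed neurons, at 47753, Neurod1 at 34725, the Notch ligand Dll4 at 13347 and Otx2, a regulator of photoreceptor fate, at 11087.

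Inhibitors of cyclin-dependent kinases were present more often in the later cells. Of 7 measured genes, 12 of 77 combinations were present at E12.5 (15.6%, 8.32% to 25.6%) and 17 of 49 later (34.7%, 21.7% to 49.6%), or 31.4% without A6 and D7. Cdkn1c, which encodes p57Kip2, was the member with a difference of over 50 points. Its signal was 13369 in A5, 5029 in B1, 3535 in D7 and 1760 in B7 and 430 or below in the other 3 later cells, and it was present in no E12.5 cell, with 658 as the highest signal (57.1 points, 15.9 to 84.2). Cdkn1b, which encodes p27Kip1, was present in 5 cells on each side, with the highest later signals in B1 (16639) and B7 (8099). Cdkn1a, which encodes p21, was at 8688 in B1 and 1174 in A6 and in no E12.5 cell, while Cdkn2d was present in 4 E12.5 and 3 later cells and the single presence calls of Cdkn2a and Cdkn2b were in A6, at 1403 and 1109.

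Cell cycle genes varied more among the cells of a side than between the sides. Of 29 measured S phase genes, 59.6% of combinations were present at E12.5 (54.0% to 65.0%) and 51.2% later (44.1% to 58.3%). An E12.5 cell had 6 to 28 of these genes and a later cell 5 to 23, with 5 in A5 and 6 in A6. Of 39 measured G2/M genes, 55.9% were present at E12.5 (51.1% to 60.7%) and 51.6% later (45.5% to 57.7%). Both sides held cells with few and cells with nearly all of them, from 5 to 35 at E12.5 and from 1 in A5 to 33 in both A8 and D7. Without A5 and A6 the direction of both differences turned, with 64.1% for S phase and 65.6% for G2/M in the other 5 later cells. Cdc45, a part of the helicase that opens replication origins, was present in 8 of 11 E12.5 cells at 1250 to 3477 and in 1 later cell, B3, at 3696 (-58.4 points, -79.5 to -11.2). Ttk, the spindle checkpoint kinase, had the same counts, with 2422 to 22394 at E12.5 and 1967 in D7. Mcm5 of the replicative helicase was present in all 11 E12.5 cells and 4 later cells, while Mcm2 was present in 9 and 7, Mcm7 in 11 and 6 and the polymerase clamp Pcna in 10 and 6. Of the mitotic genes, the kinase Cdk1 and Incenp were each present in 9 and 6 and Kif22 in 8 and 6.

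Immediate early and heat shock genes, which respond within minutes to stimuli that include tissue dissociation, were present in 34.4% of combinations at E12.5 (28.0% to 41.3%) and 48.1% later (39.4% to 56.9%), over 19 measured genes. Cells A8 and A5 had the most, with 14 and 12, and the other later cells had 6 to 9, against 4 to 11 at E12.5. Fosb, a partner of Jun in the AP-1 factor, was the one member past 50 points, with 1 of 11 cells at E12.5 and 5 of 7 later (62.3 points, 16.7 to 84.0). Its later signals were 6098 in A5, 3047 in B3, 1388 in A8, 1089 in A6 and 1008 in B1, and B7 was just below the limit at 997. Fos was present in all 7 later cells and in 8 E12.5 cells, Ier2 in 3 and 1, and Egr1, in the opposite direction, in 5 of 7 and 9 of 11. The chaperones Hspa8 and Hsp90aa1 were present in all 18 cells.

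Among all 509 measured genes of the 28 lists, Cdkn1c and Fosb were the 2 that reached 50 points in favor of the later cells (0.393% of the list genes, against 0.555% of all genes) and Cdc45, Kdr, Mdm2, Pfkl and Ttk the 5 in favor of E12.5 (0.982%, against 0.214%). The shares of all genes are over 18194 genes, of which 10622 were present in any of the 18 cells. Genes present in no cell could not reach 50 points, so these shares are low as a background for lists of chosen markers. Mdm2, the ligase that controls p53, was present in 6 E12.5 cells at 1124 to 9760 and in no later cell, with 644 as the highest signal there. Like Pfkl, it was measured by a probe set of the kinds that can match several transcripts. For the lists not yet described, the share at E12.5 is given before the later one. Early progenitor genes were present in 47.1% of combinations on each side and late progenitor genes in 25.3% at E12.5 and 25.0% later. Wnt genes had 25.2% and 27.2%, FGF genes 24.4% and 24.03%, Hedgehog genes 25.0% and 26.2%, Notch receptors and effectors 24.9% and 29.3%, genes of retinal pattern 23.8% and 27.9% and p53 and apoptosis genes 22.7% and 24.5%. Amacrine genes were present in 10.4% and 16.3%, horizontal cell genes in 6.82% and 16.1% and photoreceptor genes in 4.55% and 6.49%. Tfap2a and Tfap2b, transcription factors of amacrine and horizontal cells, were present in later cells only, Tfap2a at 19772 in B1 and Tfap2b at 2770 in D7 and 1968 in B7. Glycolysis genes had 56.6% and 56.3%, ribosomal protein genes 82.6% and 82.4% and housekeeping genes 74.6% and 74.4%, with A6 lowest of all at 9 of 19 housekeeping genes.

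The members of these lists that were present in the most cells differed by less than 50 points, and their counts follow as cells of 11 at E12.5 and of 7 later. Actb, Eef1a1, Gapdh, Pkm, Ctnnb1, Rpl11, Rpl27 and Rpl35 were present in all 18 cells, and Ldha in 10 and 7. Among the Notch genes, the counts were 9 and 5 for Rbpj, the DNA-binding partner of the cleaved receptor, and 6 and 5 for Hes6. In the Hedgehog list they were 7 and 4 for the signal transducer Smo, 5 and 2 for the coreceptor Cdon, and 4 and 3 for the transcription factor Gli3. Dusp6 and Etv5, targets of FGF signaling, had 8 and 3 and 6 and 5. The retinoic acid enzymes Aldh1a1 and Cyp26a1, which make and degrade the ligand, had 7 and 5 and 5 and 3, and the nuclear receptor Nr2f1 6 and 4. Of the late progenitor genes, Zfp36l1 had 10 and 5 and Dapl1 9 and 4. Mcl1 and Bcl2, which protect cells from apoptosis, had 6 and 5 and 6 and 3, and Apaf1, of the apoptosome, had 3 and 3. Foxn4, a factor of horizontal and amacrine cell formation, had 5 and 5, Onecut1 0 and 1, and Onecut2 1 and 2. The glycine transporter Slc6a9 had 0 and 3 and Celf4 2 and 1 in the amacrine list, and Prdm1 2 and 1 in the photoreceptor list.

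For genes found in nearly every cell, the level of the signal could be compared as well. Of 428 genes present in at least 15 of the 18 cells, 23 had a median signal at least 2-fold higher in the later cells (5.37%) and 34 a median at least 2-fold higher at E12.5 (7.94%), and the median difference over the 428 genes was -0.07 on the log2 scale (later minus E12.5). The groups overlapped for all 16 genes named here. Sptan1, the spectrin of the neuronal membrane skeleton, had a median signal of 12745 later and 1664 at E12.5, a log2 difference of 2.94, with 1237 to 24087 in the later cells and 133 to 26928 at E12.5. Sox11, a SoxC factor of differentiating neurons, had medians of 13626 and 4259 (log2 difference 1.68), and its highest signals were in B1 (48104) and D7 (24799), while A6 was at 271. The log2 difference was 1.59 for Atxn7l3b, 1.38 for Hnrnpc, an RNA-binding protein of the nucleus, 1.37 for Cox6c of cytochrome c oxidase, 1.33 for Norad, a noncoding RNA that binds Pumilio proteins, 1.31 for Igf2bp1, which binds mRNAs in embryonic tissues, and 1.31 for Tubb2a, a tubulin whose probe sets may also detect close relatives. For Hnrnpc, all 7 later cells lay between 12429 and 88196, and 2 of the 11 E12.5 cells were above 12429. For Igf2bp1 the log2 difference was 0.64 without A6 and -0.0309 without the transitional cells A6 and B1.

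In the other direction, Ncam1, the neural cell adhesion molecule, was present in all 11 E12.5 cells at 1306 to 33768, with a median of 18994. The later cells were spread widely for this gene, with 30162 in B1, 16908 in B7, 7300 in D7 and 2983 in A6, and with 709, 188 and 113 in A8, B3 and A5 (log2 difference -2.67). Aldoa, an aldolase of glycolysis, had a median of 23159 at E12.5 and 5429 later (-2.09), and no later cell reached that E12.5 median. The log2 difference was -2.56 for Noc2l and -2.51 for Nsa2, proteins of the nucleolus, and -1.64 for the snoRNP protein Nop56, which ranged from 249 to 29702 in the later cells and from 299 to 71840 at E12.5. G3bp2, a protein of stress granules, had -1.98, Nudt4, which cleaves inositol pyrophosphates, -1.78, and Msantd2 -1.63. Without A6 and D7, all 8 genes with a higher later median still had 2-fold differences, with log2 values from 1.28 to 3.13, but of the 8 genes higher at E12.5 only 5 did, and Noc2l, Nudt4 and Nop56 had -0.53, -0.59 and -0.21.

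**Figure D4:**
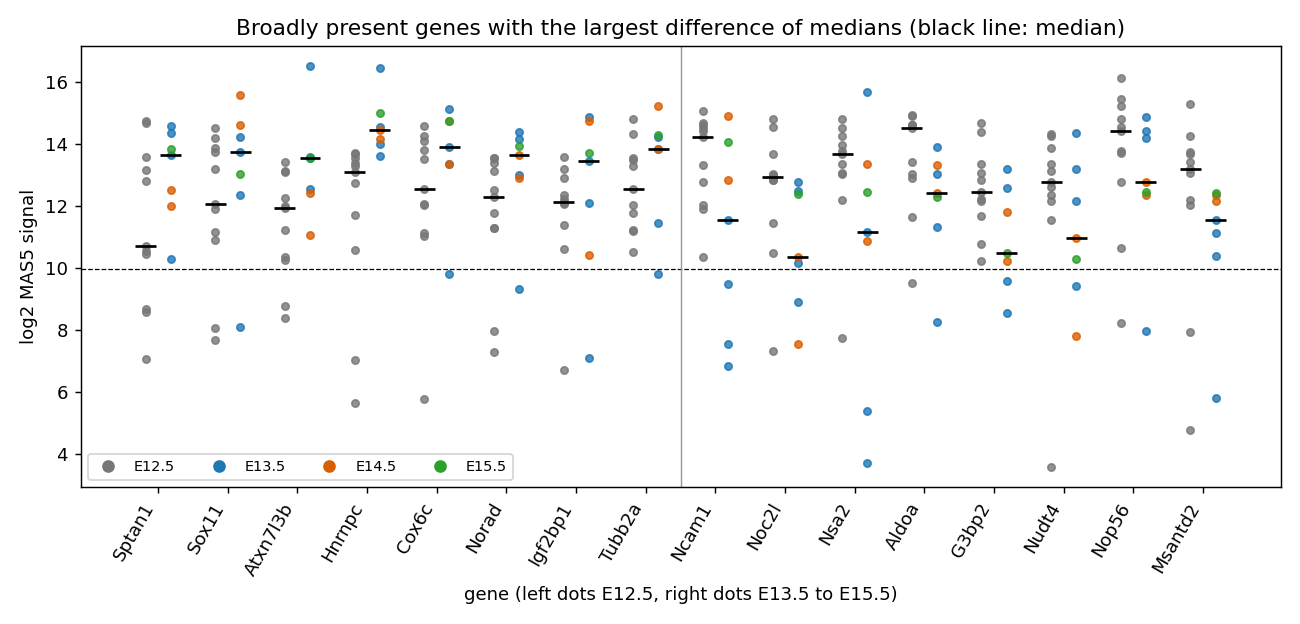
Log2 MAS5 signal of the 16 broadly present genes with the largest difference of medians, in the E12.5 cells (left dots of each gene) and the later cells (right dots, colored by stage); black lines are medians and the dashed line marks a signal of 1000. The dots of the 2 sides overlap for every gene, and levels of different genes cannot be compared because each has its own probe set.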

How the data were processed

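Each cell's amplified cDNA was measured on an Affymetrix 430 2.0 array, and the authors computed the deposited signal intensity of each of 45101 probe sets with MAS5, scaled per array. The mean signal after trimming 2% of probe sets at each end was between 500.003 and 500.02 on the 18 arrays. The 34958 probe sets with 1 gene symbol in the platform annotation measured 18194 genes, and 932 with several symbols were left out. Of the 34958, 34754 matched RefSeq by gene identifier. The gene value was the highest probe set and the presence level 1000, the level that the study used as background. The number of genes present per cell stands for depth, which arrays do not give otherwise, and 1 array per cell limits the precision.

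Shares have exact Clopper-Pearson 95% intervals and differences of shares Newcombe 95% intervals (scipy 1.17.1, Python 3.11.15). Genes that occur together and cells that may share an embryo are not independent, so the true uncertainty is larger. Named genes were the 12 with the largest difference in percent of cells in each direction, the 8 broadly present genes with the largest difference of median log2 signal in each direction, all genes of the progenitor and lens lists present in any of the 18 cells, and, of every other list, the members past 50 points and the 3 present in most cells. Further list members were named after their values were seen. The members, the 28 gene lists and the rules were chosen with earlier results of these data known. The computations were tested on simulated data. Levels of 500, 2000 and 5000, the mean of the probe sets, fewer probe sets, quantile normalization, the 3000 highest genes per cell and the removal of cells were tried as alternatives.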

Additional observations from a re-analysis of the deposited data

Results flagged for a closer look

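Of the measures taken per cell, those below had a cell whose gap to the nearest other cell, divided by the whole range, exceeded the 95% limit of Dixon's test. Chance gives about 1 such value in 20 groups for continuous measures, and 68 groups of values were examined. For counts of genes, where the other cells are often all at the same number, 1 extra gene exceeds the limit by construction, so the counts below are values only. All of them concerned E13.5 cell A6. Among the 7 later cells, and also among the 4 E13.5 cells, its array had the highest median probe set signal (215.8, next 87.9 among the 7), the highest mean signal (4810, next 1268), the highest single signal (1903060, next 495848) and the highest median of the 18 hybridization control probe sets (311477, next 84429). Among both the 7 and the 4 cells, it was also highest in microglia genes (2 of 12, next 0), endothelial genes (2 of 10, next 0) and surface ectoderm and keratin genes (4 of 14, next 1 among the 7 and 0 among the 4). Among the 4 E13.5 cells only, it was highest in blood genes (3 of 10, next 1) and mesenchyme genes (1 of 11, next 0). Whether the array had a part in these gene counts was not tested.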

How the results depend on the processing

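No paired analysis was possible because the cells' names carry no link between stages and no test was made between the 2 sides. The counts of genes depended on the settings, and which side had more genes also turned. The differences in share of the 9 main lists and the median number of genes per cell moved by less than the spread between cells, but that median (557 genes more in later cells) was -56 at a presence level of 5000, and the small differences of the progenitor, S phase and G2/M lists changed sign under some alternatives. The number of genes 50 points higher in later cells, 101 in the report, was 157, 50 and 28 at presence levels of 500, 2000 and 5000, 55 with the mean of the probe sets, 59 after quantile normalization (against 58 at E12.5), 48 with the 3000 highest genes of each cell, 189 without A6, 256 without A6 and D7, 342 without the transitional cells A6 and B1, 337 with E13.5 cells only, and 343 and 36 at 40 and 60 points. The number higher at E12.5, 39 in the report, was 23 at 5000, 71 with the 3000 highest genes, 60 without D7, 68 without A6 and D7, 72 without E12.5 cell E5, 130 with E13.5 cells only, and 140 and 11 at 40 and 60 points. Broadly present genes with a higher later median, 23 in the report, numbered 45, 15 and 5 at levels of 500, 2000 and 5000, 13 with the mean of the probe sets, 11 without probe sets that can match several transcripts, 65 after quantile normalization, 13 without A6, and 74 and 3 at 1.5-fold and 3-fold. Those with a higher E12.5 median, 34 in the report, numbered 66, 18 and 8 at the 3 levels, 22 with the mean, 57 after quantile normalization, 19 without A6, 22 without E5, 73 with E13.5 cells only, and 94 and 9 at 1.5-fold and 3-fold. Lens genes present in A6, 12 in the report, numbered 20, 7 and 5 at the 3 levels. Leaving out each cell in turn gave 112 to 202 and 35 to 73 genes for the shares. The first count moved by over 1.5 times without E12.5 A4 (173), A5 (178), A6 (189), B3 (202), E14.5 B1 (173) or B7 (161), and the second without any E12.5 cell other than A4 (59 to 73), without A8 (72) or without D7 (60). For the levels the ranges were 10 to 23 and 19 to 33 genes. The first moved likewise without E12.5 B4 (12), D5 (15), A6 (13), E14.5 B1 (10) or B7 (11), and the second without E12.5 D5 (22), E5 (22), F8 (19) or A6 (19). Fewer cells leave fewer possible percentages; no other cause was tested. The log2 difference of Igf2bp1 turned to -0.0432 without probe sets that can match several transcripts and to -0.0309 without the transitional cells. Of the other values of named genes under alternatives, 40 of 5163 for shares and 3 of 559 for levels moved by more than the spread between cells. Chosen after seeing the data were the removal of A5, A6, D7 and E12.5 G2 together (415 and 121 genes for the shares, 35 with a higher later median), of A5 and A6 (325 genes higher in later cells), of A5 (178) and of E12.5 G2 (65 higher at E12.5). A signal below 1000 is a limit of the arrays and does not separate a low level from none.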
